A study of Homo sapiens with 2 samples.

Results

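The genes described here are 7 members of the SOX group that T47D mammospheres express or that accompany such a gene: SOX2, its overlapping non-coding RNA SOX2-OT, SOX3, SOX4, SOX9, SOX12 and SOX13. They were chosen by gene symbol out of 46732 genes in the deposited gene table. T47D is an established human cell line of luminal, estrogen receptor-positive breast cancer. A pair of libraries was compared, 1 from cells labelled CIC knockdown and 1 from control cells, and no agent or sequence of the knockdown, and no control construct, is given in the sources used here. Both cultures were grown for 7 days as primary mammospheres, which are floating spheres of cells that survive without attachment, and after passage for 7 days as secondary mammospheres. CIC (capicua) is a DNA-binding repressor, and the comparison asks how gene expression in mammospheres differs when it is knocked down. The labels give 1 library per group although the design text speaks of duplicates, so no test could be run, and what follows describes this pair of libraries alone.

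SOX proteins are transcription factors that bind and bend DNA through a domain related to that of SRY, the male sex-determining factor, and most act together with a partner factor bound next to them. SOX2 and SOX3 belong to the SOXB1 subgroup, whose members keep neural progenitors undifferentiated, and SOX2 pairs with the POU factor OCT4 (POU5F1) to maintain embryonic stem cells. SOX4 and SOX12 are SOXC factors, SOX13 is a SOXD factor and SOX9 a SOXE factor that drives cartilage formation and marks progenitors in several epithelia, the mammary gland among them. SOX2 has been studied in breast cancer for its link with sphere formation.

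The total was 68420805 counts in the library labelled CIC knockdown and 47099221 in the control library, a ratio of 1.45. The label was not borne out by the mRNA of CIC itself, whose level was alike in both. The authors' TPM of CIC, a transcript abundance scaled to transcript length and to a fixed sum per library, was 1.65 in the library labelled CIC knockdown and 1.65 in the control library, and the ratio of normalised counts was 0.98 (95% counting interval 0.882 to 1.09). Each ratio given here is of the library labelled CIC knockdown over control. Its exact Clopper-Pearson interval covers counting error only, since each group has 1 library. Where PCR copies of a molecule are counted as separate reads, the interval is too narrow even for counting error. ETV4 and ETV5, ETS factors that CIC is known to repress, were both higher in the library labelled CIC knockdown. For ETV4 the ratio was 4.62 (3.71 to 6.0), and for ETV5 it was 4.93 (4.24 to 5.86). The 8 luminal markers checked were all measured and summed to 8110 TPM in the library labelled CIC knockdown and 8020 TPM in control. Of the 7 basal or myoepithelial markers, 5 had at least 10 counts, and KRT5 and KRT14 were listed at 0 in both. The 7 summed to 7.99 TPM in the library labelled CIC knockdown and 9.55 TPM in control. Most of that sum was OXTR, with 5.95 TPM in the library labelled CIC knockdown and 7.43 TPM in control. MYLK went the other way, with 0.338 TPM in the library labelled CIC knockdown and 0.231 TPM in control. TP63 had 8 counts in the library labelled CIC knockdown and 38 in control, a ratio of 0.179 (0.0579 to 0.312). The ratios of KRT17 and ACTA2 had intervals that held 1. The leukocyte markers PTPRC and CD3E were also listed at 0, and the 6 leukocyte markers checked summed to 0.207 TPM in the library labelled CIC knockdown and 0.0493 TPM in control.

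Among the 6 of these genes with at least 100 counts in 1 library, SOX2 was higher by its counting interval, and SOX3, SOX4, SOX12 and SOX13 had intervals that held 1. SOX9 was lower, with an interval that ended just under 1 and a call that was lost under several alternatives. By the same rule 33.8% of 13722 genes were higher and 27.3% were lower, so calls of this kind were common over the whole table. None of the 6 reached 1.5-fold either way, a rule that 4.28% of genes passed upward and 3.43% downward. The median log2 ratio of the 6 genes was -0.05, with a range of -0.22 to 0.29. Over all 13722 genes the median was 0.02, and the 5th and 95th percentiles were -0.48 and 0.55.

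The sequence before SOX2 is shown because SOX2 was the most abundant SOX gene in both libraries and one of the 2 with an interval off 1. It is the 250 bases before the RefSeq start site, chr3:181711675-181711924 on the plus strand of GRCh38.p14, 5′ to 3′, with 68.8% G and C. The capitals mark ATTGG, which reads CCAAT on the other strand.
SOX2 upstream: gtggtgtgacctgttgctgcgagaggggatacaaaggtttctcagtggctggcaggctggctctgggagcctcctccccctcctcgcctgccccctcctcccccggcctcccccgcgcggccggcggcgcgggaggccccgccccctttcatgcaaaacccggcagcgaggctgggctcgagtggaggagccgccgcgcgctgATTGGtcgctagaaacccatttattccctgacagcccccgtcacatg

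CIC recognises an octamer, searched here as TGAATGAA, TGAATGGA, TCAATGAA and TCAATGGA on both strands of 300-base RefSeq promoter windows, which run from 250 bases before to 50 bases after a start site. The octamer was in 3.77% of all 35116 windows, in 2 of 22 windows of SOX-named genes and in 1 of 8 windows of SOX2, SOX2-OT, SOX3, SOX4, SOX12 and SOX13. That window, chr3:181174894-181175193, belongs to a SOX2-OT start whose transcript had 0 counts in both libraries. The SOX core word CATTGTT was in 3.33% of all windows and in 1 of the 8, also at a start of SOX2-OT. The CCAAT word, which shares the letters CAAT with some of these words or their reverse strands, was in 34.6% of all windows and in 5 of the 8. The SOX4 window held it 4 times. These matches describe letters in the windows and do not show that a factor binds there.

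SOX2 had the highest level of the SOX genes and, of the 6 with at least 100 counts, the largest ratio. SOX2, a single-exon gene at chr3:181711925-181714436 with a transcript of 2512 bases, had 6088 counts in the library labelled CIC knockdown and 3403 in control. Its level was 36.6 TPM (counting interval 35.7 to 37.5) in the library labelled CIC knockdown and 29.3 TPM (28.3 to 30.3) in control, and the intervals did not overlap. By normalised counts, the ratio was 1.22 (1.17 to 1.27), which is 0.29 on the log2 scale. Of the 13722 genes with at least 100 counts, 14.9% had a ratio at or above that of SOX2. Among protein-coding genes with counts, SOX2 ranked 1786 of 15322 by TPM in the library labelled CIC knockdown and 2178 of 14978 in control. In bulk RNA, a change in the number of cells that express a gene and a change in RNA per cell cannot be told apart.

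SOX2-OT is transcribed on the same strand as SOX2 and spans it, at chr3:181056680-181742228, with SOX2 lying in an intron. It had 21 counts in the library labelled CIC knockdown and 11 in control, or 0.0876 TPM (0.0542 to 0.134) in the library labelled CIC knockdown and 0.0656 TPM (0.0327 to 0.117) in control. The ratio of 1.26 had an interval of 0.6 to 2.99, so a difference of the size seen for SOX2 was not detectable at this depth. All of its counts were assigned to 1 of 6 annotated transcripts, NR_075091, which starts at the 5′ end of the locus. No annotated SOX2-OT exon in GENCODE overlapped SOX2. RNU6-4P, a U6 small nuclear RNA pseudogene inside the SOX2-OT span, had 74 counts in the library labelled CIC knockdown and 72 in control, a ratio of 0.708 (0.5 to 0.983). As a copy of U6 RNA, it may be credited with reads of other U6 copies, so its counts are uncertain.

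SOX3, the other SOXB1 factor expressed, is a single-exon gene on the minus strand at chrX:140502987-140505060. It had 626 counts in the library labelled CIC knockdown and 468 in control. Its level was 4.55 TPM (4.2 to 4.92) in the library labelled CIC knockdown and 4.87 TPM (4.43 to 5.33) in control, with overlapping intervals. The ratio was 0.913 (0.808 to 1.03), below 1 while that of SOX2 was above it. SOX1, the remaining SOXB1 gene, was listed at 0 in both libraries. The subgroup summed to 41.1 TPM in the library labelled CIC knockdown and 34.1 TPM in control, 57.5% and 53.6% of the TPM of all 19 SOX protein genes in the table. SOX2 alone made up 51.1% of the SOX total in the library labelled CIC knockdown and 46.0% in control.

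**Figure D1:**
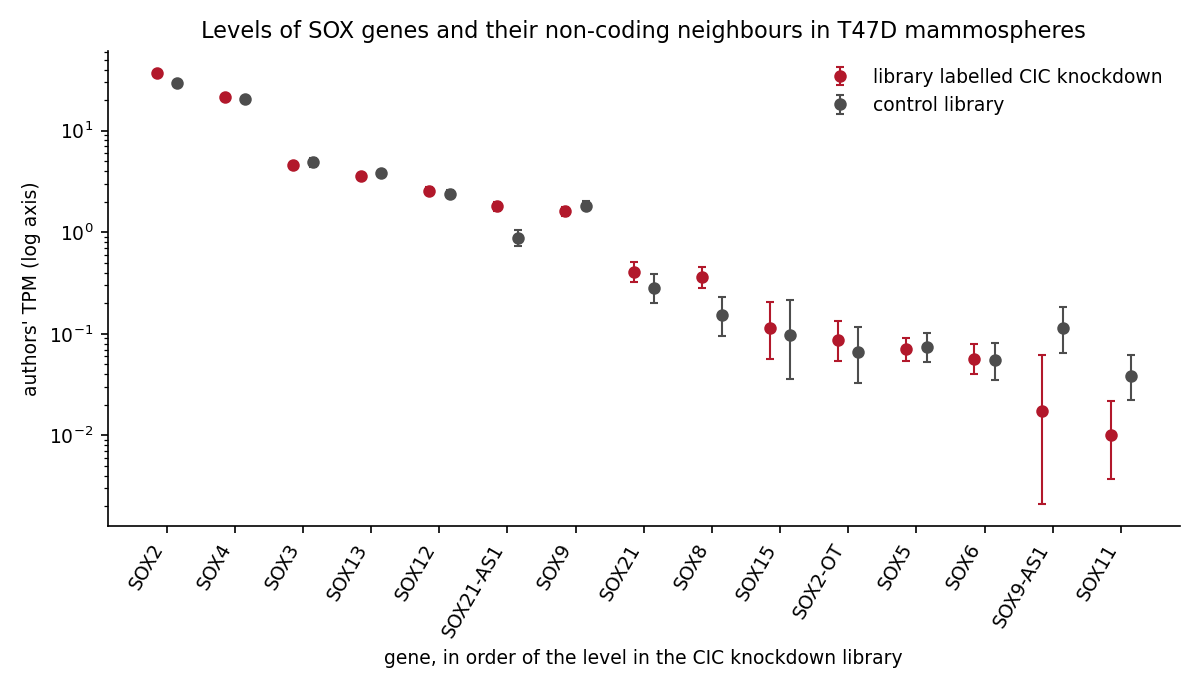
Authors' TPM on a log axis of each SOX gene or SOX-named non-coding gene with at least 10 counts, with the library labelled CIC knockdown in red at the left and control in grey at the right of each pair. Bars are 95% counting intervals. SOX2 (36.6 TPM in the library labelled CIC knockdown, 29.3 TPM in control) and SOX4 (21.5 TPM in the library labelled CIC knockdown, 20.7 TPM in control) stand above all others, and SOX2-OT lies below 0.1 TPM in both libraries.

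SOX4 was the second most abundant SOX gene, and its annotated transcript was at nearly the same level in both libraries. SOX4, at chr6:21593751-21598619, controls cell survival and progenitor states in many tissues and is often abundant in carcinomas. It had 6951 counts in the library labelled CIC knockdown and 4659 in control. Its level was 21.5 TPM (21.0 to 22.1) in the library labelled CIC knockdown and 20.7 TPM (20.1 to 21.3) in control. The ratio was 1.02 (0.98 to 1.06). SOX4 had more counts than SOX2 but a lower TPM, with a transcript of 4869 bases.

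The value of SOX4 depended on which deposited table was read. A second gene table, in which the authors added transcripts assembled from the reads, gave SOX4 6952 counts in the library labelled CIC knockdown and 2861 in control, a ratio of 1.67 (1.6 to 1.75). The assembly held a transcript of 2 exons on the same strand, chr6:21593761-21602550, which lacks 150 bases inside SOX4 and runs 3931 bases past its annotated end. That transcript was given 0 counts in the library labelled CIC knockdown and 1898 in control, or 39.9% (38.5 to 41.3, exact binomial) of the summed control counts. With both added together, a sum chosen after seeing the data, the counts were 6952 in the library labelled CIC knockdown and 4759 in control, and the ratio was 1.01 (0.97 to 1.04). Which of the overlapping models the reads at this locus belong to cannot be told from the tables, so the ratio of SOX4 alone is uncertain.

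SOX12, the other SOXC factor with over 100 counts, overlaps SOX4 in function in mouse development. SOX12, at chr20:325571-330228, had 794 counts in the library labelled CIC knockdown and 519 in control, or 2.57 TPM (2.4 to 2.76) in the library labelled CIC knockdown and 2.4 TPM (2.2 to 2.62) in control. The ratio was 1.04 (0.933 to 1.17). SOX11, the remaining SOXC factor, which acts in developing neurons, had 6 counts in the library labelled CIC knockdown and 17 in control, a ratio of 0.307 (0.0777 to 0.64). The log2 ratio of SOX11 was -1.7 by counts and -0.33 by TPM with a pseudocount of 0.1. The subgroup summed to 24.1 TPM in the library labelled CIC knockdown and 23.1 TPM in control.

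SOX13, at chr1:204073096-204127743, is a SOXD factor, a subgroup whose members carry a coiled coil for dimerization and no activation domain of their own. It had 902 counts in the library labelled CIC knockdown and 677 in control. Its level was 3.61 TPM (3.38 to 3.85) in the library labelled CIC knockdown and 3.83 TPM (3.55 to 4.13) in control, and the ratio was 0.909 (0.822 to 1.01). It was the only one of the 7 genes with counts in more than 1 annotated transcript. The longer transcript, NM_005686 of 4076 bases, took 85.9% (83.5 to 88.1) of SOX13 counts in the library labelled CIC knockdown and 88.2% (85.5 to 90.5) in control. The intervals of these shares overlapped.

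SOX9, at chr17:72121020-72126416, had 420 counts in the library labelled CIC knockdown and 334 in control. Its level was 1.61 TPM (1.46 to 1.77) in the library labelled CIC knockdown and 1.83 TPM (1.64 to 2.04) in control, and these intervals overlapped. The ratio was 0.858, with an interval of 0.741 to 0.993 that ended just under 1. The call was lost when counts were halved, as if both mates of a read pair had been counted, where the interval was 0.697 to 1.06. It was also lost with plain library totals, TPM, FPKM and the table with assembled transcripts. SOX9-AS1, a non-coding gene annotated 227 bases from SOX9, had 2 counts in the library labelled CIC knockdown and 16 in control, a ratio of 0.169 (0.00951 to 0.363). The log2 ratio of SOX9-AS1 was -2.56 by counts and -0.86 by TPM with a pseudocount of 0.1. SOX8, another SOXE factor, had 74 counts in the library labelled CIC knockdown and 22 in control, a ratio of 2.21 (1.41 to 3.88). The SOXE sum was 1.97 TPM in the library labelled CIC knockdown and 1.98 TPM in control.

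**Figure D2:**
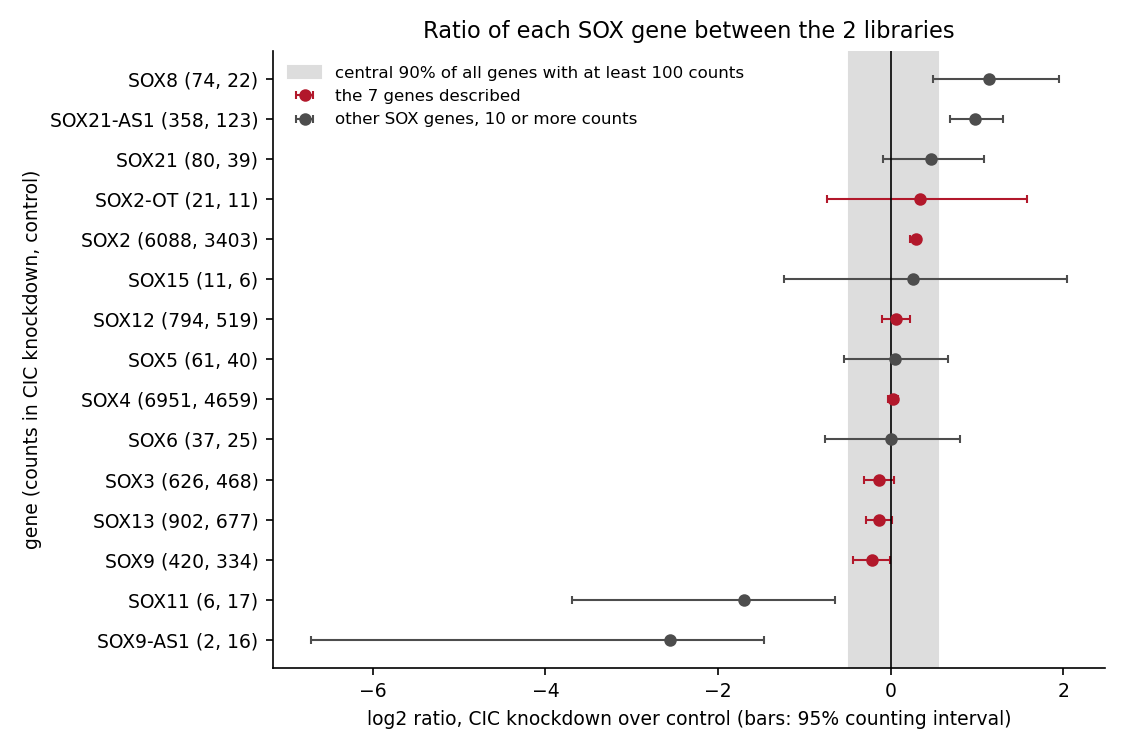
Log2 ratio of the library labelled CIC knockdown over control for each SOX gene with at least 10 counts, with both counts beside the name and 95% counting intervals as bars. The grey band holds the central 90% of genes with at least 100 counts. The 7 genes described, in red, lie within the band, while SOX8 and SOX21-AS1 lie above it and SOX11 and SOX9-AS1 below it. SOX8, SOX11, SOX9-AS1 and SOX2-OT had under 100 counts, where ratios scatter more widely. Over genes with at least 10 counts, the 5th and 95th percentiles were -0.92 and 1.09, beside 1.14 for SOX8.

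The order of SOX levels was the same in both libraries for the 8 most abundant genes: SOX2, SOX4, SOX3, SOX13, SOX12, SOX9, SOX21 and SOX8. Counting intervals of neighbours in this order did not overlap in either library as far as SOX9 and SOX21. SOX21 and SOX8 overlapped in both, and SOX8 and SOX15 overlapped in control. Relative to the median of protein-coding genes with counts, 5.64 TPM in the library labelled CIC knockdown and 5.72 TPM in control, SOX2 and SOX4 were above it and the other SOX genes below it. Of the 19 SOX protein genes, 12 had at least 10 counts, SOX18 had 7 in each library, and SOX1, SOX7, SOX10, SOX14, SOX17 and SOX30 were listed at 0. Of the 12, SOX2 and SOX8 were higher by the interval and SOX9 and SOX11 lower, beside 28.4% higher and 24.2% lower of the 19849 genes with at least 10 counts. The SOXD factor SOX5 had 61 counts in the library labelled CIC knockdown and 40 in control, a ratio of 1.04 (0.687 to 1.59). SOX6, also a SOXD factor, had 37 counts in the library labelled CIC knockdown and 25 in control, a ratio of 1.01 (0.592 to 1.75). SOX15, with 11 counts in the library labelled CIC knockdown and 6 in control, had a ratio of 1.2 (0.424 to 4.12).

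SOX21-AS1 was the SOX-named gene with at least 100 counts that differed most. This non-coding gene at chr13:94712716-94715945 had 358 counts in the library labelled CIC knockdown and 123 in control, or 1.8 TPM (1.62 to 2.0) in the library labelled CIC knockdown and 0.885 TPM (0.736 to 1.06) in control. The ratio was 1.97 (1.61 to 2.46), and 1.25% of genes had one at or above it. SOX21, a SOXB2 factor that opposes SOXB1 factors in neural progenitors of the chick and the mouse, starts on the opposite strand beside it. SOX21 had 80 counts in the library labelled CIC knockdown and 39 in control, a ratio of 1.38 (0.943 to 2.11). LOC112268114, an uncharacterised gene inside SOX21-AS1, had 10 counts in the library labelled CIC knockdown and 0 in control. It was chosen after its values were seen. The difference is 2.27-fold higher against a floor of 3 counts in the control library, with an interval from 1.53 upward. The division of reads between overlapping genes is uncertain.

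The 170 bases between SOX21 and SOX21-AS1 are shown because the genes start here and run apart. They are chr13:94712546-94712715 on the plus strand of RefSeq GRCh38.p14, which is the strand of SOX21-AS1, with 59.4% G and C. The capitals mark TATAAA, which lies 30 bases before the SOX21-AS1 start and was found on either strand in 11.5% of all windows.
SOX21 to SOX21-AS1: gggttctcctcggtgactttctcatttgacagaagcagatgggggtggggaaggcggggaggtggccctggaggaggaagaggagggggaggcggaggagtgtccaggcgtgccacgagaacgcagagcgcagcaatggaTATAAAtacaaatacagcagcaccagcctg

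**Figure D3:**
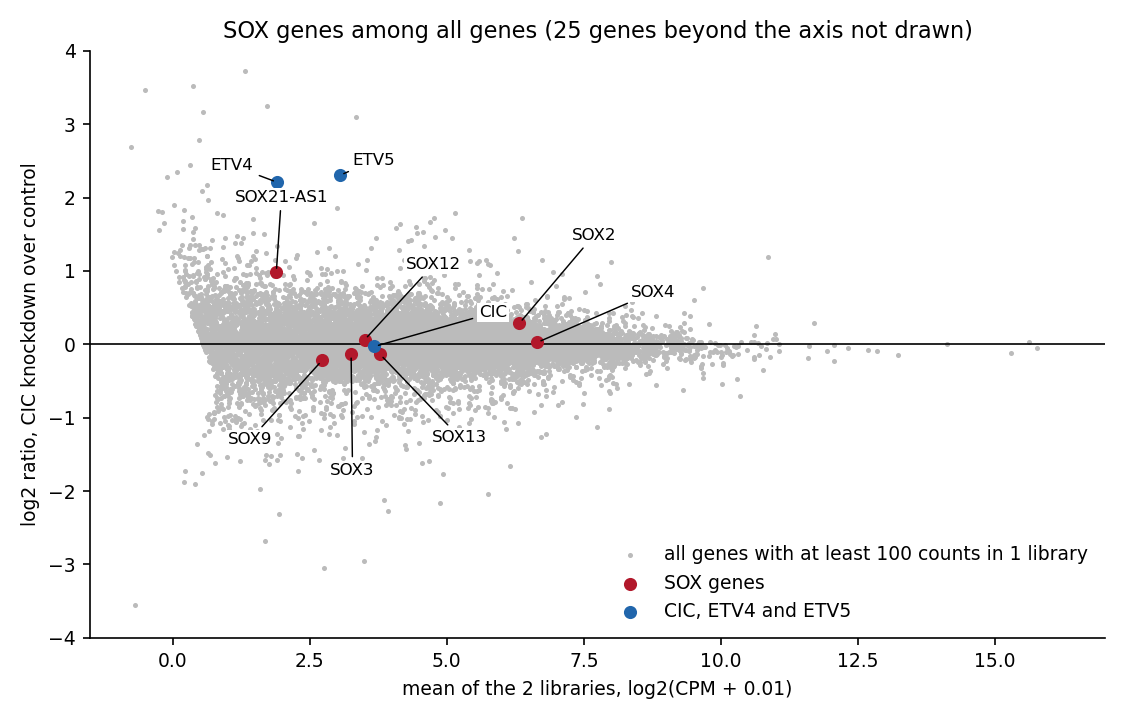
Log2 ratio of the library labelled CIC knockdown over control against the mean level, log2(CPM + 0.01) with CPM as counts scaled to library size, for genes with at least 100 counts. SOX2 and SOX4 lie among the more abundant genes, SOX21-AS1 near the upper edge of the cloud and ETV4 and ETV5 above it, and CIC near 0.

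Ratios of genes on either side of SOX2 lay on both sides of 1. Of 15 protein-coding genes within 2 Mb, 12 had at least 10 counts, of which 4 were higher, 4 lower and 4 had intervals that held 1, near the shares of 28.4% higher and 24.2% lower over all genes with at least 10 counts. The median log2 ratio of the 12 was 0.04, beside 0.02 over all genes with at least 10 counts. FXR1, an RNA-binding protein gene 729 kb before SOX2, had 11109 counts in the library labelled CIC knockdown and 7564 in control, a ratio of 1.0 (0.973 to 1.03). DNAJC19, for a mitochondrial co-chaperone 722 kb before SOX2, had a ratio of 0.879 (0.826 to 0.935). ATP11B, a phospholipid flippase gene 1080 kb after it, had 8501 counts in the library labelled CIC knockdown and 5916 in control, with a ratio of 0.98 (0.948 to 1.01). The largest differences in the window were those of KLHL24, with 5406 counts in the library labelled CIC knockdown and 6564 in control and a ratio of 0.562 (0.542 to 0.582), and of B3GNT5, with a ratio of 0.585 (0.474 to 0.713). TTC14 had a ratio of 0.805 (0.761 to 0.852) and YEATS2, a subunit of a histone acetyltransferase complex, 1.13 (1.07 to 1.19).

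**Figure D4:**
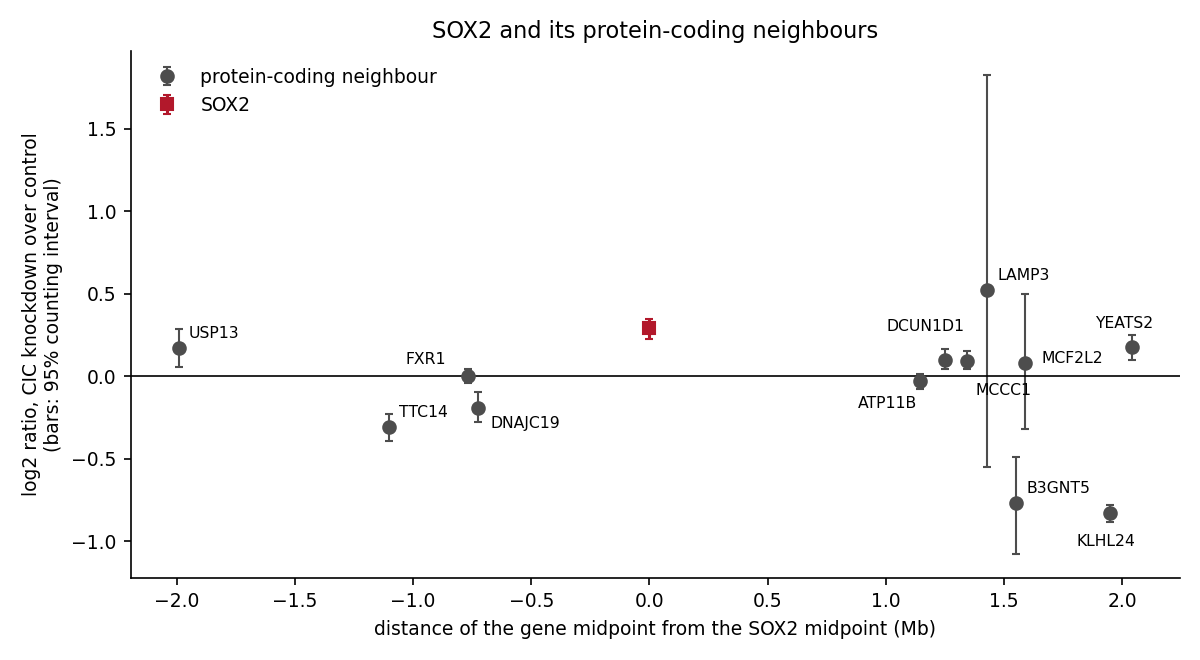
Log2 ratio of the library labelled CIC knockdown over control for SOX2 and the 12 protein-coding neighbours with at least 10 counts, against the distance of gene midpoints in Mb, with 95% counting intervals as bars. FXR1 and ATP11B lie near 0 beside SOX2 at 0.29, and B3GNT5 and KLHL24 lie lowest.

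Within 100 kb of the 7 genes lay 33 other genes, of which 17 had at least 10 counts. Of these, 2 were higher, 6 lower and 9 had intervals that held 1, beside 28.4% higher and 24.2% lower of all genes. Their median log2 ratio was -0.11, against 0.02 over all genes. The 2 higher genes flank SOX12: NRSN2, with 437 counts in the library labelled CIC knockdown and 206 in control and a ratio of 1.44 (1.22 to 1.72), and ZCCHC3, with a ratio of 1.17 (1.07 to 1.29). TRIB3, a pseudokinase gene of the stress response also near SOX12, was lower at 0.861 (0.829 to 0.893), as was GOLT1A near SOX13 at 0.791 (0.696 to 0.897). CASC15, a long non-coding gene 67794 bases from SOX4 that was chosen after its values were seen, had 31 counts in the library labelled CIC knockdown and 40 in control, a ratio of 0.547 (0.32 to 0.866).

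Genes tied to SOX2 in pluripotent cells went both ways. Of 20 listed partners and targets, 11 had at least 10 counts, 5 of them higher and 4 lower, and the median log2 ratio was 0.48. Over all genes with at least 10 counts, the shares were 28.4% higher and 24.2% lower and the median was 0.02. The median of the list was the same with the 2 genes at 0 in control set to their lower bounds. It was -0.08 when only the 6 genes with at least 100 counts were kept. DNMT3B, a DNA methyltransferase that is abundant in embryonic stem cells, had 1112 counts in the library labelled CIC knockdown and 500 in control, a ratio of 1.52 (1.36 to 1.69). The zinc-finger factor KLF5 had a ratio of 0.893 (0.839 to 0.952), the stem cell factor SALL4 0.899 (0.85 to 0.95) and MYC 0.91 (0.853 to 0.972).

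The partner of SOX2 in embryonic stem cells was barely detected. POU5F1 had 12 counts in the library labelled CIC knockdown and 20 in control, a ratio of 0.454 (0.182 to 0.879), and NANOG was listed at 0 in both. Both genes have near-identical copies elsewhere in the genome, so their counts are uncertain. KLF4, by contrast, had 3874 counts in the library labelled CIC knockdown and 2678 in control, a ratio of 0.987 (0.939 to 1.04). LIN28A, which blocks maturation of let-7 microRNAs, had 41 counts in the library labelled CIC knockdown and 0 in control. That is 9.32-fold higher against a floor of 3 counts, and the lower end of the interval of its ratio was 7.24. LIN28B had 14 counts in the library labelled CIC knockdown and 0 in control, 3.18-fold higher against that floor, with an interval from 2.26 upward. POU5F1, NANOG, KLF4, LIN28A and LIN28B were chosen after their values were seen.

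Most measured genes of neural progenitors, where SOXB1 factors act in development, were higher. Of 18 listed, 12 had at least 10 counts, of which 9 were higher, 2 lower and 1 had an interval that held 1, beside 28.4% higher and 24.2% lower of all genes. The median log2 ratio was 0.29. It was the same with the 2 genes at 0 in 1 library set to their ratios against a floor of 3 counts. NES, the intermediate filament nestin, had 2073 counts in the library labelled CIC knockdown and 797 in control, a ratio of 1.77 (1.63 to 1.93). The zinc-finger factor ZIC2 had 149 counts in the library labelled CIC knockdown and 49 in control, a ratio of 2.04 (1.49 to 2.93), and ZIC1 a ratio of 1.43 (1.23 to 1.66). MSI1, the RNA-binding protein Musashi-1, had a ratio of 1.31 (1.09 to 1.58).

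The lower genes of that list had few counts, as did some of the higher ones. CDH2, N-cadherin, had 0 counts in the library labelled CIC knockdown and 13 in control. That is 6.35-fold lower against a floor of 3 counts, and the upper end of the interval of its ratio was 0.224. PROM1 had 6 counts in the library labelled CIC knockdown and 12 in control. Among the higher genes, PAX6, a neural and eye factor, had 26 counts in the library labelled CIC knockdown and 4 in control. Its ratio was 3.44 (1.54 to 17.5). POU3F2, also higher, had 17 counts in the library labelled CIC knockdown and 0 in control, with an interval from 2.81 upward. CDH2, PROM1, PAX6 and POU3F2 were chosen after their values were seen. Markers of neural and glial cells themselves were near 0: GFAP, OLIG2 and S100B were listed at 0 in both libraries, and the 6 markers summed to 0.617 TPM in the library labelled CIC knockdown and 0.562 TPM in control.

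Genes for enzymes and cofactors that act on SOX proteins differed little. All 16 had at least 100 counts, and 6 were higher, 3 lower and 7 had intervals that held 1, near the shares of 33.8% higher and 27.3% lower over all genes of that depth. The median log2 ratio was 0.05. UBE2S, a ubiquitin-conjugating enzyme of cell division that acts on SOX2, had 5218 counts in the library labelled CIC knockdown and 2628 in control, a ratio of 1.35 (1.29 to 1.42). OTUD7B, a deubiquitinase, had a ratio of 1.14 (1.09 to 1.19) by counts, although its level was 9.66 TPM in the library labelled CIC knockdown and 9.83 TPM in control. DET1, part of a ubiquitin ligase, had a ratio of 0.841 (0.754 to 0.937) and SETD7, a methyltransferase that modifies SOX2, 0.902 (0.875 to 0.93). The Wnt effector TCF7L2 had a ratio of 1.17 (0.872 to 1.58).

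Cartilage genes that SOX9 activates were mixed. Of 14 listed, 7 had at least 10 counts, 2 higher, 3 lower and 2 with intervals that held 1, beside 28.4% higher and 24.2% lower of all genes. The median log2 ratio was 0.16. COL2A1, the type II collagen of cartilage, had 291 counts in the library labelled CIC knockdown and 169 in control, a ratio of 1.17 (0.968 to 1.43). COL27A1 had a ratio of 1.7 (1.54 to 1.88) and MATN3 one of 1.32 (1.05 to 1.68). COL11A2 had a ratio of 0.704 (0.621 to 0.796). COL9A2 had one of 0.688 (0.587 to 0.803), but its log2 ratio was 0.37 when assembled transcripts were included. The 7 fibroblast markers summed to 26.0 TPM in the library labelled CIC knockdown and 14.1 TPM in control, with COL3A1 at 23.1 TPM in the library labelled CIC knockdown and 9.38 TPM in control and COL1A2, PDGFRA and PDGFRB at 0 in both. LUM, the next most abundant of these markers, went the other way, with 2.44 TPM in the library labelled CIC knockdown and 4.44 TPM in control. Their part in the collagen ratios was not tested.

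**Figure D5:**
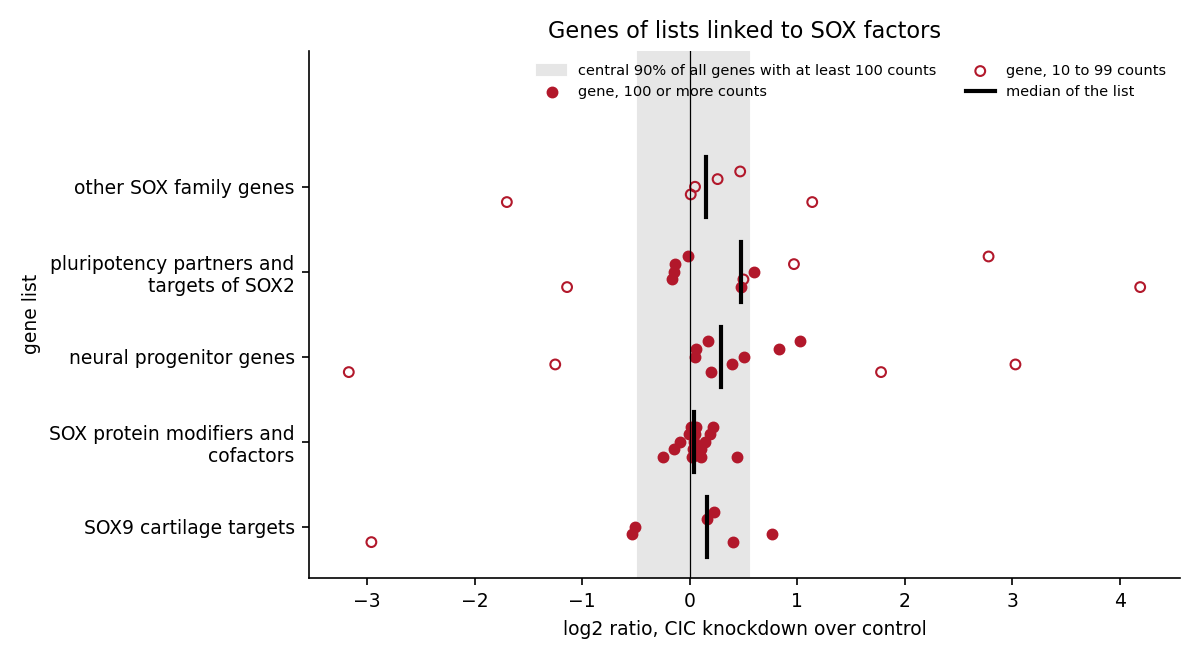
Log2 ratio of the library labelled CIC knockdown over control for each gene with at least 10 counts in 5 lists linked to SOX factors, with filled points for genes of at least 100 counts, open points for fewer and a bar at each median. The grey band holds the central 90% of genes with at least 100 counts. Medians run from 0.05 for modifiers and cofactors to 0.48 for pluripotency genes, and the points farthest from 0 are open.

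The protein-coding genes whose levels were most like those of SOX2, by Euclidean distance of log2 TPM over the 2 libraries among 11572 candidates, were SLC11A2, C12orf75 and NDUFB5. SLC11A2, an iron transporter gene, was at 36.6 TPM in the library labelled CIC knockdown and 29.5 TPM in control, a distance of 0.013. C12orf75 was at 36.6 TPM in the library labelled CIC knockdown and 28.9 TPM in control. NDUFB5, for a subunit of respiratory complex I, was at 35.8 TPM in the library labelled CIC knockdown and 29.2 TPM in control. With 2 libraries this is likeness of 2 values. The count ratio of NDUFB5 was 1.01 (0.977 to 1.05), which differs from its ratio in TPM.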

How the data were processed

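Stranded libraries of total RNA were sequenced on a NovaSeq, per the labels' protocols. Tools listed without version in the submitters' processing notes are StringTie, HISAT2 and Trimmomatic, with GRCh38 (hg38) as build. The deposited tables give, per gene and transcript, an estimated count, an FPKM and a TPM made by the authors, per the file headers. Whether reads or fragments were counted, and whether strand was used, is not stated.

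Library totals over all 46732 genes were scaled by TMM factors (edgeR 4.0.16, R 4.3.3), 1.0 for the library labelled CIC knockdown and 0.995 for control. Log2 ratios used a prior count of 2, and 95% intervals were exact Clopper-Pearson intervals conditional on the summed count. Genes were called by at least 100 counts in 1 library (10 in lists) and an interval on 1 side of 1, with or without 1.5-fold or 2-fold. Alternatives used DESeq2 1.42.0 size factors, plain totals, TPM or FPKM (pseudocount 0.1), other prior counts, halved counts, other minimums and the table with assembled transcripts. Scripts were tested on simulated data.

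The 7 genes and the lists were chosen with earlier results of these data known. Named genes were the 7, CIC, ETV4 and ETV5, other SOX genes with at least 10 counts, up to 5 genes per list or neighbourhood with the largest log2 ratios at 50 counts or more, genes overlapping the 7, and the 3 nearest to SOX2 in level. Some genes that this rule names are not reported here. Promoters are from RefSeq GRCh38.p14, and 6 of the 7 genes matched, all but SOX9. The merged transcript table was not used.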

Additional observations from a re-analysis of the deposited data

How the results depend on the processing

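No paired analysis was possible because each group has 1 library, and for the same reason no library could be left out. SOX2, SOX2-OT, SOX3, SOX9, SOX12 and SOX13 kept the direction of their log2 ratio under all 9 alternatives, with a range of 0.29 to 0.32 for SOX2 and -0.22 to -0.18 for SOX9. SOX4 was 0.74 with the table of assembled transcripts and between 0.01 and 0.06 otherwise. Scaling moved the median of all genes by at most 0.034. The number of the 7 genes called higher was 2 with TPM and with the table of assembled transcripts, against 1. The number called lower was 0, against 1, with plain library totals, TPM, FPKM, halved counts and the table of assembled transcripts, since the interval of SOX9 then reached 1. With assembled transcripts, 1 of the 7 genes, SOX4, passed 1.5-fold upward, against 0.

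With a minimum of 10 counts and with no minimum, 1563 and 1706 genes passed 1.5-fold upward, against 587, and 1461 and 1829 downward, against 470. For 2-fold the numbers were 964 and 1107 upward, against 161, and 813 and 1181 downward, against 132. Higher pluripotency genes were 2, against 5, with halved counts and with a minimum of 100 counts. Lower neural progenitor genes were 1 with halved counts and 0 with the minimum of 100, against 2. Higher cartilage genes were 1 with halved counts, against 2, and lower genes within 100 kb were 3 with the minimum of 100, against 6. By TPM the longer SOX13 transcript took 79.5% in the library labelled CIC knockdown and 82.6% in control. OTUD7B turned to -0.03 with TPM and -0.04 with FPKM, and COL9A2 to 0.37 with assembled transcripts. With TPM and FPKM, SOX11 was -0.33 and -0.31, against -1.7, and SOX9-AS1 -0.86 and -0.82, against -2.56. SOX11 had 0.0101 TPM in the library labelled CIC knockdown and 0.0384 TPM in control. SOX9-AS1 had 0.0173 TPM in the library labelled CIC knockdown and 0.113 TPM in control. Adding the pseudocount of 0.1 to values this low draws their ratios toward 1. The causes of the other shifts were not tested. The 13 other SOX protein genes all had under 100 counts, so the minimum of 100 left none of them.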
